A study of Mus musculus with 6 samples.

Results

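Quiescent stem cell and astrocyte markers, a set of 37 named genes, were examined in RNA-seq libraries from the adult mouse subventricular zone (SVZ), the stem cell niche lining the lateral ventricles. The members were taken by gene symbol from a fixed list, with no threshold on the values, and all 37 were found among the 55487 rows of the deposited table. Every member also passed the filter on low values (mean of at least 10 over the libraries), as did 18227 rows in all. The study compared 2 genotypes with 3 libraries each. The heterozygous group carried E2F1(+/-);E2F3(F/+), and the knockout group E2F1(-/-);E2F3(F/F), where F is a floxed allele. E2F1 and E2F3 are activator E2F transcription factors that drive entry into the cell cycle, and the series concerns their part in quiescence and activation of adult neural stem cells. All mice carried the NestinCreERT2 and R26;EYFP alleles, on a mixed C57BL/6;Sv/129;FVB/N background. They were 6 to 10 weeks old at the start of treatment with tamoxifen (200 mg/kg per day by gavage, 5 days), which both groups received, and tissue was dissected 10 days after the last dose. Cre is driven by Nestin regulatory sequences and needs tamoxifen to act. Cells expressing the yellow reporter were sorted, at least 200000 per library from several pooled mice. The sort was meant to hold Nestin-lineage cells and their marked descendants. Markers of other cell types, among them microglia, were also read in the libraries, as given below. The heterozygous group already lacks 1 copy of E2F1 and carries 1 floxed E2F3 allele, so it is not wild type.

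Adult neural stem cells of the SVZ are specialised astrocytes. In quiescence they share with niche and parenchymal astrocytes the genes for glutamate uptake, potassium and water handling, gap junctions, lipid transport and metal buffering. When they activate and divide to form transit-amplifying cells and neuroblasts, these genes are turned down. No gene in the list separates quiescent stem cells from astrocytes by itself, and several are also made by other cells of the niche: Dbi, Mt3, Clu and Prom1 by ependymal cells, Slco1c1 by brain endothelium, and Apoe and Cst3 by microglia. In a bulk library, fewer cells of a type and less RNA per cell cannot be told apart.

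Depth and sample identity were checked first. The libraries held 19798675 to 25982361 reads assigned to genes. E2f1 stood at 1152, 1388 and 1030 normalized reads in heterozygous A, B and C and at 375, 483 and 516 in knockout A, B and C (log2 change -1.38 ± 0.22 SE, limma adjusted p = 0.00559). Reads of E2f1 thus remained in every knockout library. The 14 proliferation markers had a median log2 change of -2.59, and whether E2f1 fell only along with them was not tested. The E2f1 level alone therefore does not settle the genotype. E2f3, counted over the whole gene, was at 293, 205 and 253 against 324, 231 and 245 (log2 difference 0.09 ± 0.28, adjusted p = 0.845), a value that cannot show loss of the floxed part alone. Of 16 neuroblast markers all 16 fell, and of 14 proliferation markers all 14 fell, beside 8.59% of all tested genes called lower by limma. As a check of the label, astrocyte genes were abundant. Averaged over the libraries, 16 of the 37 members were among the 50 genes of highest level per kilobase of exon, out of 18206 genes with a known length. Cst3, which encodes a secreted cysteine protease inhibitor, ranked 2, Apoe, the main brain apolipoprotein, ranked 3, the carboxypeptidase gene Cpe ranked 4 and Clu, clusterin, ranked 6. Prom1, which encodes the surface protein CD133, had the lowest level per kilobase of the members, at rank 4398.

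All 37 members had a higher mean in knockout than in heterozygous libraries, but only 5 passed the test. These were Fxyd1, Slco1c1, Dbi, Mt1 and Mt3, and they rose by 1.77-fold to 2.41-fold (limma, adjusted p from 0.0116 to 0.0325). The 5 make up 13.5% of the members, beside 7.23% of all tested genes called higher. None of the 37 was called lower by limma or edgeR, beside 8.59% of all tested genes, and none of them (0) reached an unadjusted p under 0.05 in that direction. The median log2 change was 0.58 over the members and 0.05 over all tested genes, of which 52.3% had a positive value. The lowest knockout value exceeded the highest heterozygous value for 13 of the 37 members, which is 35.1% beside 18.5% of all tested genes. These were the 5 called genes and Slc1a2, Aqp4, Mlc1, Apoe, Clu, Mt2, Prdx6 and Ntsr2. The groups of the other 24 overlapped. An unadjusted p under 0.05 was reached by 16 members, all with higher means in knockout. The share of all tested genes at that level was not computed. This count and the later ones at that level therefore stand without a comparison. Together the 37 transcripts took 5.08%, 4.67% and 7.04% of assigned reads in heterozygous A, B and C and 7.18%, 9.12% and 9.24% in knockout A, B and C. This share divides each library by its own total of assigned reads, and genes with the most reads, such as Apoe, Cpe and Cst3, weigh most in it. In this share the groups did not overlap, although heterozygous C and knockout A lay close to each other. In summed normalized reads they did overlap, with heterozygous C at 1607150 and knockout A at 1559530.

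**Figure D1:**
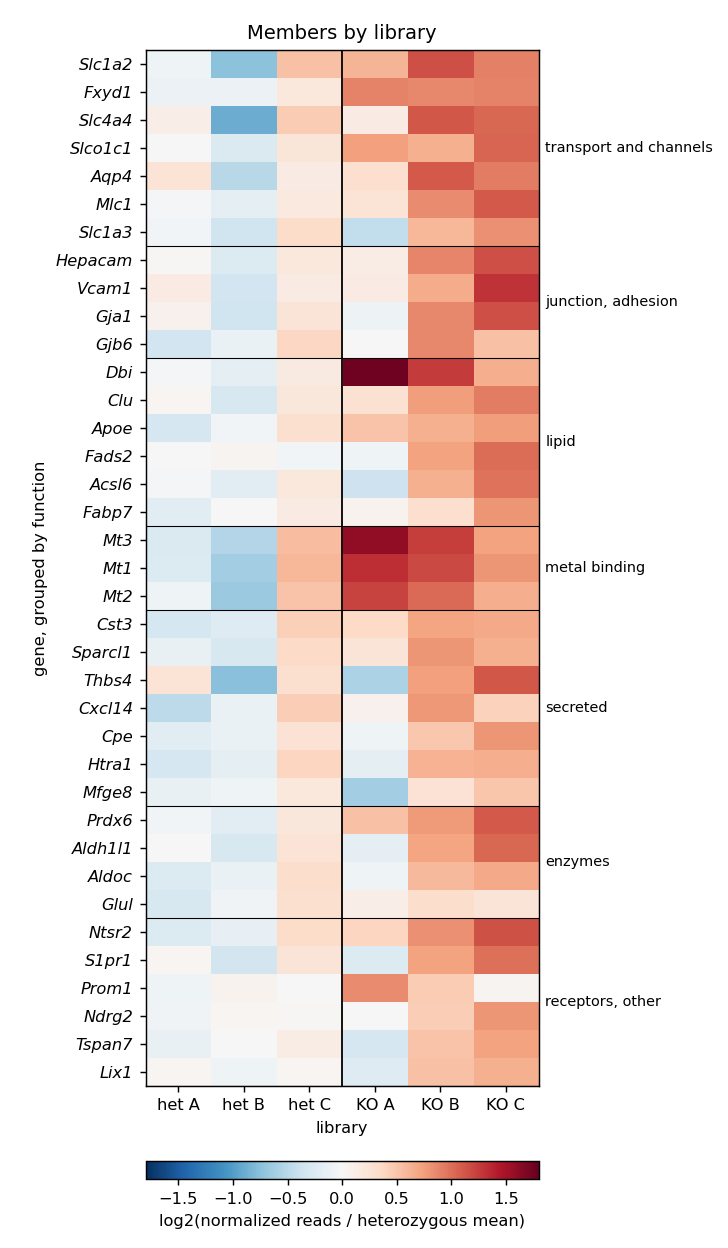
Each cell is the log2 ratio of a member's normalized reads in 1 library (columns, 3 heterozygous and 3 knockout) to its mean over the heterozygous libraries (rows, genes grouped by function). Knockout B lies above every heterozygous library for all 37 members, while knockout A is the lowest knockout library for 30 of them and the highest for 5. Shares of all tested genes with these orders were not computed.

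The count depended on single libraries. Without knockout A, 16 members were called higher (43.2%, beside 5.41% of all tested genes), 3 of them shared with the 5 above. The 13 others were Slc4a4, Aqp4, Mlc1, Gja1, Hepacam, Vcam1, Clu, Acsl6, Fads2, Prdx6, Aldh1l1, Ntsr2 and S1pr1, while Mt1 and Mt3 then missed the threshold (adjusted p = 0.0561 and 0.0515). Limma called 0 members when heterozygous A was left out (10 at an unadjusted p under 0.05), and likewise 0 with heterozygous B (8) or knockout B (9) left out. These fits called few genes of any kind higher, 1.78%, 0.904% and 0.599% of all tested genes in that order, so a count of 0 among 37 says little about the members. The authors' deposited table called 15 members higher (40.5%, beside 7.44% of the genes it adjusted), and edgeR on reads recovered from the values called 6 (beside 7.78%), the same 5 and Prdx6. The authors' 15 were the 5 of limma with Slc1a2, Aqp4, Mlc1, Hepacam, Vcam1, Apoe, Clu, Mt2, Prdx6 and Ntsr2. DESeq2 on recovered reads called the same 15 (beside 11.4%). For these genes a missed threshold in the paragraphs below refers to limma.

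**Figure D2:**
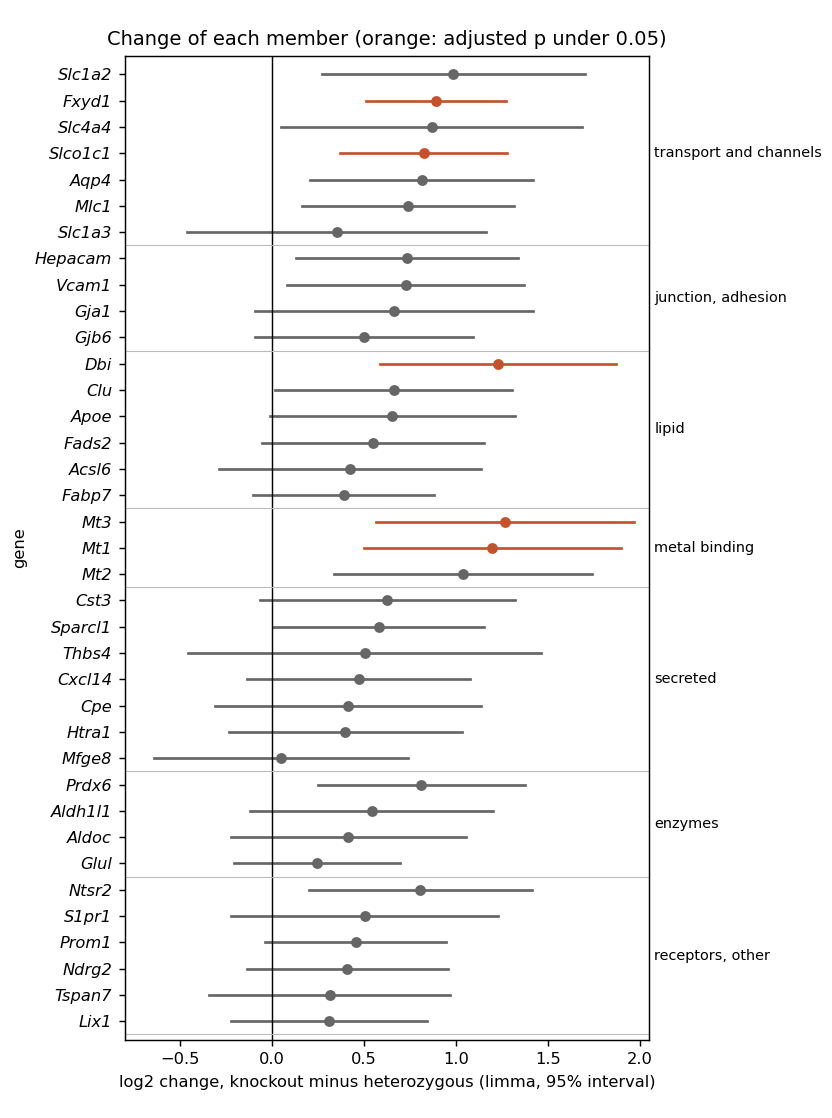
Points show the log2 change of each member, knockout minus heterozygous, and lines its 95% interval from limma (rows, genes by function). All 37 points lie above 0, from 0.05 for Mfge8 to 1.27 for Mt3, and the 5 orange members are those with adjusted p under 0.05.

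Transporters and channels of the astrocyte membrane included 2 of the 5 called genes. Of 7 members in this group 2 rose, 5 had separated groups, and the median log2 change was 0.82. For this and each later functional group, the shares over all tested genes were 7.23% called higher (7.78% by edgeR) and 18.5% separated upward. Fxyd1 encodes phospholemman, a small regulator of the sodium-potassium pump. It had 3983, 3994 and 4878 normalized reads in heterozygous A, B and C and 7956, 7794 and 7973 in knockout A, B and C. The knockout libraries were closely alike, with a coefficient of variation of 1.25%, the lowest of any member, and all lay above the heterozygous ones. The increase was 1.85-fold (log2 0.89 ± 0.17 SE, limma adjusted p = 0.0116). With any 1 library left out the log2 value was 0.84 to 0.99, and the call was lost when heterozygous A (adjusted p = 0.0562), heterozygous B (0.0507) or knockout B (0.0679) was the one left out. Slco1c1, which encodes a thyroid hormone and organic anion transporter, had 7102, 5945 and 8303 reads in heterozygous and 11864, 11138 and 14726 in knockout libraries. Its groups did not overlap, and it rose 1.77-fold (log2 0.82 ± 0.20, adjusted p = 0.0264).

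The glutamate transporter genes gave different values. Slc1a2, encoding GLT-1, was at 23289, 14719 and 35445 in heterozygous and 37449, 54858 and 46060 in knockout libraries, with a log2 difference of 0.99 ± 0.32 that missed the threshold (adjusted p = 0.0631). Slc1a3, encoding GLAST, was at 87276, 70122 and 112806 against 66425, 136323 and 158598 (log2 difference 0.35 ± 0.36, adjusted p = 0.524). Knockout A was the lowest of all 6 libraries for Slc1a3 but above every heterozygous library for Slc1a2. The ratio of Slc1a2 to Slc1a3 reads was 0.267, 0.210 and 0.314 in heterozygous and 0.564, 0.402 and 0.290 in knockout libraries, and the groups overlapped (two-sided exact permutation test, p = 0.2, where 3 against 3 cannot go below 0.1). This was 1 of 4 ratios within gene families, chosen after the values were seen, and its adjusted value was 0.4. Per kilobase of exon, Slc1a3 was at 10550 ± 2516 and Slc1a2 at 1864 ± 793 in heterozygous libraries (SD, n = 3). The water channel gene Aqp4 and Mlc1, whose product works in astrocyte volume control, had log2 differences of 0.81 ± 0.27 and 0.74 ± 0.26 (adjusted p = 0.069 and 0.0781), with separated groups. The bicarbonate cotransporter gene Slc4a4 had 0.87 ± 0.36 (adjusted p = 0.129) and overlapping groups.

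Gap junction and adhesion genes held no limma or edgeR call among 4 members (0 by each, 2 at an unadjusted p under 0.05), with a median log2 difference of 0.69. By the authors' own adjusted p-values Hepacam (0.0249) and Vcam1 (0.0334) were called. Hepacam, which encodes an adhesion protein that binds the Mlc1 product, had the smallest p. It was at 7642, 6376 and 8560 in heterozygous and 8243, 13897 and 16761 in knockout libraries (log2 difference 0.73 ± 0.27, adjusted p = 0.0897). Only knockout A lay within the heterozygous range. The same library set the overlap for Gja1, encoding connexin 43, at 40554, 29955 and 45011 against 35996, 70228 and 85959 (0.66 ± 0.34, adjusted p = 0.198). Gjb6, encoding connexin 30, had a log2 difference of 0.50 ± 0.26 (adjusted p = 0.212). The ratio of Gjb6 to Gja1 reads had overlapping groups (two-sided exact permutation p = 0.5, adjusted over 4 ratios 0.667). Vcam1, an adhesion molecule that holds quiescent stem cells in the niche, was at 3699, 2618 and 3689 against 3698, 5310 and 8245 (0.73 ± 0.29, adjusted p = 0.112). Without knockout A, Gja1, Hepacam and Vcam1 were called, with log2 changes of 1.03, 1.03 and 1.01.

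Of 6 lipid genes 1 rose, and 3 had separated groups (median log2 change 0.60). Dbi encodes the acyl-CoA-binding protein, which is also the precursor of a peptide acting on GABA-A receptors. It was at 22814, 20753 and 25947 in heterozygous and 77862, 55575 and 36464 in knockout libraries, a 2.34-fold increase (log2 1.23 ± 0.29, adjusted p = 0.0226). The knockout libraries were spread widely, from A as the highest to C as the lowest, yet all were above the heterozygous range. Without knockout A the log2 change of Dbi was 0.96, and it was still called (adjusted p = 0.0299). Apoe ran the other way among the knockout libraries, at 284168, 310921 and 338112 in A, B and C against 162569, 192853 and 244132 in heterozygous libraries. Its groups did not overlap, but the log2 difference of 0.65 ± 0.30 missed the threshold (adjusted p = 0.157). Clu was alike (0.66 ± 0.29, adjusted p = 0.14). The desaturase gene Fads2, the acyl-CoA synthetase gene Acsl6 and Fabp7, a fatty acid binding protein of radial glia, had differences of 0.55, 0.42 and 0.39 (adjusted p of 0.183 to 0.376) and overlapping groups.

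Metallothioneins, small cysteine-rich proteins that bind zinc and copper, had the highest median of the 7 functional groups, 1.20 on the log2 scale, and 2 of 3 rose. Mt1, Mt2 and Mt3 lie side by side on chromosome 8 (GRCm38, 94152607 to 94180327, plus strand). Transcription of Mt1 and Mt2 is classically driven by the zinc-sensing factor MTF1 through metal response elements, whereas Mt3 is a brain form. Because the 3 neighbours had their highest levels in the same libraries, the 250 bases before the start that RefSeq annotates for each (GRCm38.p6) are shown 5′ to 3′. Capitals mark matches to the metal response core, TGCACNC or TGCGCNC, on either strand.
Mt3, chr8:94152357-94152606, plus strand: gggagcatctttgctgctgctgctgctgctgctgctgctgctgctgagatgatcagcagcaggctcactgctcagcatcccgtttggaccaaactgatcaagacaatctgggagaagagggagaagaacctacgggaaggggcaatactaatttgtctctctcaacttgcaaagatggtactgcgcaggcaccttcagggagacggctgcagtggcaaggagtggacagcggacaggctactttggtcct
Mt2, chr8:94172368-94172617, plus strand: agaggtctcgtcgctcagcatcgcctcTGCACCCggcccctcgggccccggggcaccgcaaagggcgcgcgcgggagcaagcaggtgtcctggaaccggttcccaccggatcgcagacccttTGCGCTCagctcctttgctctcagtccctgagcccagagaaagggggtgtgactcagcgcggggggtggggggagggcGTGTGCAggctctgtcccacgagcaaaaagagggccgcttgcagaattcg
Mt1, chr8:94178839-94179088, plus strand: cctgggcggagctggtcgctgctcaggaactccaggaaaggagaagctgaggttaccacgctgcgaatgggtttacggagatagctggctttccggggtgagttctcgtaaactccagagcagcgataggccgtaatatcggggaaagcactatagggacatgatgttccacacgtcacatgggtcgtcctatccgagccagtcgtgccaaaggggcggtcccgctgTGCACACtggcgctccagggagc
The core was found 3 times before Mt2, 1 time before Mt1 and 0 times before Mt3. Of 27025 genes with such a window 23.8% held at least 1 match and 1.46% held 3 or more. Among the members, Tspan7 also held 3, but 2 of these overlapped on opposite strands (-85 to -79 and -82 to -76 from the start). Those of Mt2 were separate. A match is only a run of letters. GENCODE M21 also annotates starts beyond the end of each window, for Mt1 at 94179211 and 94179241. The bases just before those starts were not searched, so each count, with the 1 match of Mt1, holds for the printed window only. Among the 30 members with a window, 9 held the core (30%) and 1, Slc4a4, held an E2F-type run (TTTCCCGC, TTTGGCGC, TTTCGCGC or TTTGCCGC on either strand; 2.16% of all genes). The other 7 members had no entry to match.

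Mt3, whose product buffers zinc in astrocytes and neurons, stood at 5655, 4716 and 9924 in heterozygous A, B and C and 20525, 16030 and 11204 in knockout A, B and C. The rise was 2.41-fold (log2 1.27 ± 0.31, limma adjusted p = 0.0271). Mt1 stood at 12720, 9754 and 22814 against 38005, 34326 and 26261, a 2.30-fold rise (log2 1.20 ± 0.31, adjusted p = 0.0325). In both genes heterozygous C was the highest control and knockout C the lowest knockout library, and the gap between these was small. Mt2 had the same order of libraries, at 377, 252 and 568 against 924, 811 and 628, and just missed the threshold (log2 difference 1.04 ± 0.31, adjusted p = 0.0513). Annotated exons of the antisense gene Gm45774 cover 73.5% of Mt2 exon bases, and the use of strand in counting is not given in the sources used here, so the Mt2 level is uncertain. The ratio of Mt3 to Mt1 reads was 0.445, 0.484 and 0.435 in heterozygous and 0.540, 0.467 and 0.427 in knockout libraries, with overlapping groups (two-sided exact permutation p = 0.7, adjusted over 4 ratios 0.7). The ratio of Mt2 to Mt1 was 0.0297, 0.0258 and 0.0249 in heterozygous and 0.0243, 0.0236 and 0.0239 in knockout libraries. The knockout values were all lower, at the smallest p that 3 against 3 allows (two-sided exact permutation p = 0.1, adjusted 0.4), and the limit on the Mt2 level applies here too.

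**Figure D3:**
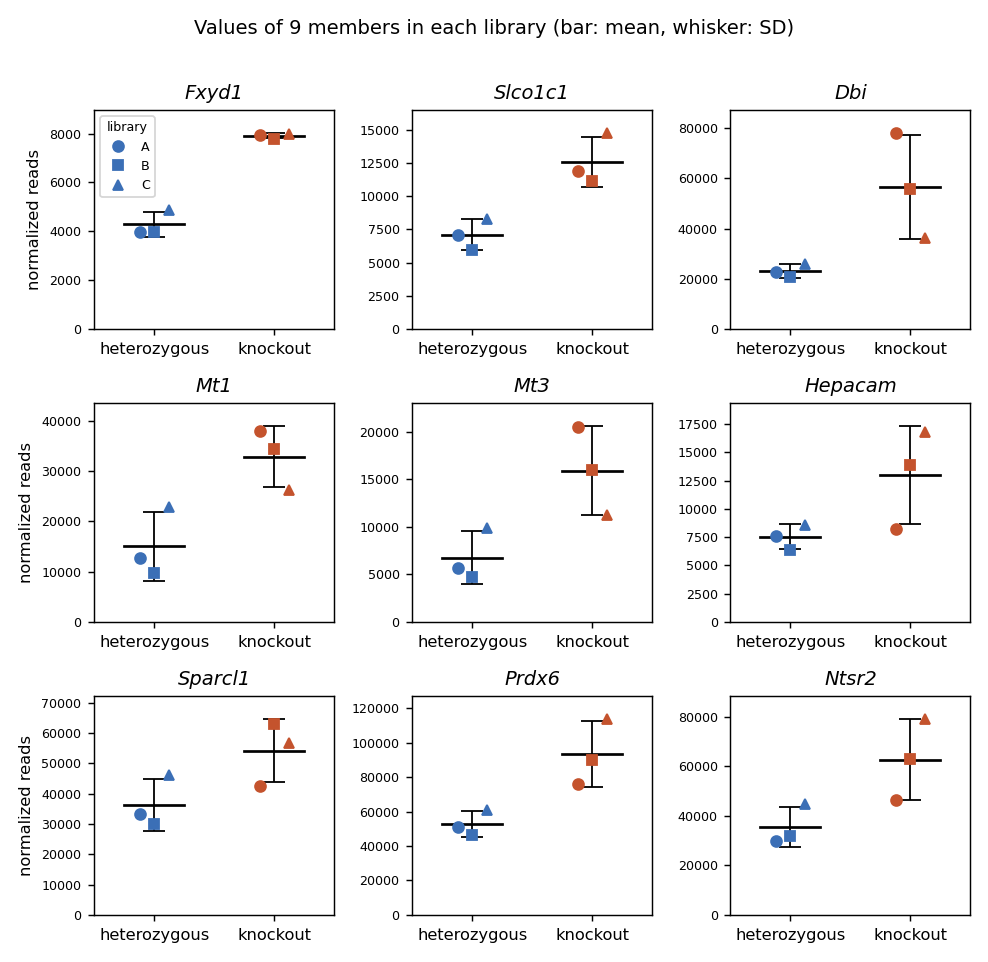
Normalized reads (vertical axes, each from 0) of the 5 called members and of the member with the smallest p in each functional group without a call, by library letter, with the mean and SD of each genotype. Dbi, Mt1 and Mt3 are highest in knockout A, whereas Hepacam, Sparcl1, Prdx6 and Ntsr2 are lowest there among the knockout libraries.

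Among secreted proteins none of 7 was called (0 by limma and by edgeR, 1 at an unadjusted p under 0.05), none had separated groups, and the median log2 difference was 0.47. Sparcl1, an astrocyte matrix protein that promotes synapse formation, had the smallest p. It was at 33181, 29871 and 46053 against 42663, 63092 and 56614 (0.58 ± 0.26, adjusted p = 0.146), and heterozygous C lay above knockout A. Cst3 had a log2 difference of 0.63 ± 0.31 (adjusted p = 0.188). Mfge8, a bridge between phagocytes and dying cells, had the smallest difference of all members, 0.05 ± 0.31 (adjusted p = 0.926, 95% interval -0.64 to 0.74), at 48888, 50904 and 61124 against 34711, 64337 and 75511. Thbs4, a thrombospondin linked to SVZ astrocytes, had the widest spread between knockout libraries, at 2940, 7257 and 9468 in A, B and C, so that C was 3.22 times A. The matrix-cleaving protease gene Htra1, the chemokine gene Cxcl14 and Cpe had differences of 0.40, 0.47 and 0.41 (adjusted p of 0.248 to 0.397).

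Metabolic and antioxidant enzymes held no limma call among 4 members (1 by edgeR, Prdx6, and 1 at an unadjusted p under 0.05). Prdx6, a peroxiredoxin that also repairs oxidised membrane lipids, was at 51077, 46269 and 60943 in heterozygous and 75840, 90116 and 113781 in knockout libraries. The groups did not overlap, and the log2 difference was 0.81 ± 0.25 (adjusted p = 0.0552). Aldh1l1, the folate enzyme widely used as an astrocyte marker, and Aldoc, the brain aldolase, had differences of 0.54 ± 0.29 and 0.42 ± 0.28 (adjusted p = 0.225 and 0.333). Glul, encoding glutamine synthetase, had 0.25 ± 0.20 (adjusted p = 0.418). Part of the Glul transcript is 96.8% identical to a processed pseudogene, Glns-ps1, which had a mean of 11.7 normalized reads.

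Among receptors and other surface or cytoplasmic markers 0 of 6 were called by limma, 0 by edgeR, and Ntsr2 alone had an unadjusted p under 0.05. By the authors' own adjusted p-values Ntsr2 was called (0.0108). Ntsr2, the low-affinity neurotensin receptor of astrocytes, was at 29944, 31997 and 44748 against 46296, 62861 and 78981, with separated groups (log2 difference 0.81 ± 0.27, adjusted p = 0.0706). S1pr1, a receptor for sphingosine-1-phosphate, had 0.50 ± 0.32 (adjusted p = 0.3), and knockout A lay within the heterozygous range. Prom1 was at 1834, 2018 and 1938 against 3473, 2657 and 2001, highest in knockout A and within the heterozygous range in knockout C (0.45 ± 0.22, adjusted p = 0.18). Ndrg2, a differentiation-linked astrocyte gene, the tetraspanin gene Tspan7 and Lix1 had differences of 0.41, 0.31 and 0.31 (adjusted p of 0.265 to 0.481). A stretch of 459 bases of the Lix1 transcript is identical to the pseudogene Gm11578, which had a mean of 28.4 normalized reads.

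The knockout libraries had opposite orders for different members. Knockout A was the lowest knockout library for 30 of 37 members and the highest for 5: Dbi, Mt1, Mt2, Mt3 and Prom1. No member called by limma with all libraries was among those 30. Of the called members, Dbi, Mt1 and Mt3 were lowest in knockout C, and Fxyd1 and Slco1c1 in knockout B. Knockout A lay under at least 1 heterozygous library for 23 members and under all of them for 6 (Slc1a3, Acsl6, Fads2, Mfge8, Tspan7 and Lix1). Knockout B lay above all heterozygous libraries for all 37 members, and knockout C did so for 34. The shares of all tested genes with these orders were not computed, so whether the counts are unusual was not tested. Among the heterozygous libraries, C was the highest for 31 members.

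Some marker lists of other cell types had the order A, B, C from high to low among the knockout libraries, namely the ependymal, endothelial, mural and choroid plexus lists, and the other 5 lists did not. For 14 ependymal markers the summed level was 15459 to 18194 normalized reads in heterozygous libraries and 90114, 56216 and 22220 in knockout A, B and C, so that A was 4.06 times C. Of these 14 genes 9 rose (12 by edgeR, but 2 without knockout A), beside 7.23%, 7.78% and 5.41% of all tested genes in that order. Mcidas was at 0 in 4 libraries and under the filter. The 12 endothelial markers summed to 7889 to 10286 in heterozygous libraries and to 48215, 18943 and 6651 in knockout A, B and C, with 0 called by limma, 1 by edgeR and 3 at an unadjusted p under 0.05. The 12 microglial markers summed to 2981, 4852 and 11287 in heterozygous and 16200, 4317 and 4481 in knockout libraries, with 0 called by limma or edgeR and 0 at an unadjusted p under 0.05. The 8 mural markers summed to 8635 to 17735 in heterozygous and 33182, 27168 and 12158 in knockout libraries, with 1 higher. The 10 oligodendrocyte markers ranged from 51348 to 74517 and from 80740 to 101154, with 1 higher, and the 8 oligodendrocyte precursor markers from 3270 to 14932 and from 3817 to 9782, with 1 lower. Choroid plexus markers were concentrated in heterozygous A (a sum of 47449 over 7 genes, mostly Ttr at 44005, against 449 to 3065 in the other libraries), with 0 called by limma or edgeR and 0 at an unadjusted p under 0.05, and Kl, Kcne2 or Slc4a5 at 0 in some libraries. The 16 neuroblast markers summed to 90485 to 148617 in heterozygous and 15781 to 21066 in knockout libraries, and the 14 proliferation markers to 49465 to 87225 and 10897 to 21360. Higher means in knockout were thus not particular to astrocyte genes. The median log2 difference was 1.61 for ependymal (13 of 13 tested positive), 1.07 for endothelial (12 of 12) and 1.10 for mural markers (8 of 8). It was 0.55 for oligodendrocyte (10 of 10), 0.15 for microglial (8 of 12), 0.10 for oligodendrocyte precursor (6 of 8) and 0.51 for choroid plexus markers (4 of 7). Dbi, Mt1, Mt2, Mt3 and Prom1 had the same A, B, C order as the ependymal and endothelial lists, and the part of those cells in their values was not tested. Fxyd1 (7956, 7794 and 7973 in knockout A, B and C) and Slco1c1 (11864, 11138 and 14726) did not have that order. The part of other cells in the values of Fxyd1 and Slco1c1 was not tested either. Of the 5 called members, Fxyd1, Slco1c1 and Dbi were still called without knockout A (adjusted p = 0.0199, 0.0338 and 0.0299).

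**Figure D4:**
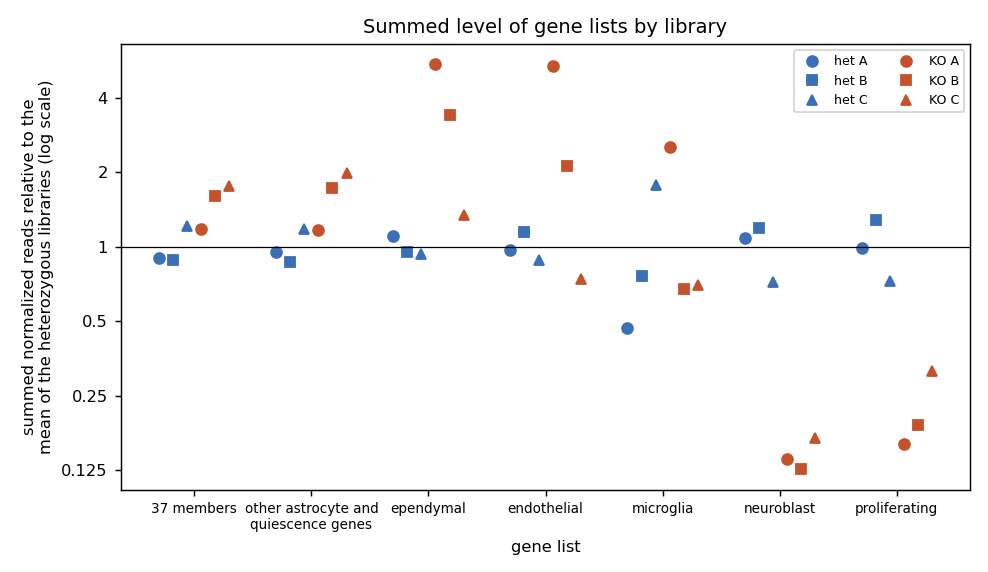
Summed normalized reads of gene lists in each library, relative to the mean of the heterozygous libraries (vertical log axis; colours mark genotype and symbols the library letter). The 37 members and the other astrocyte genes are lowest in knockout A among knockout libraries, the ependymal and endothelial lists highest there, and the neuroblast and proliferation lists are low in all 3.

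Other genes of the astrocyte and quiescence program, a list of 50 that excludes the members, mostly had higher means in knockout as well. Of these 50 genes 12 rose and 0 fell by limma, beside 7.23% and 8.59% of all tested genes. At an unadjusted p under 0.05, 1 was lower (Nfix). By edgeR also 12 were higher and 0 lower, beside 7.78% and 8.25%. The median log2 change was 0.74, and 48 of 50 were positive. Kcnj10, encoding the inward rectifier potassium channel Kir4.1, was at 686, 1024 and 1295 in heterozygous and 2701, 5022 and 3259 in knockout libraries (3.65-fold, log2 1.87 ± 0.29, adjusted p = 0.00497). Gfap, the astrocyte intermediate filament gene, was at 5543, 5028 and 5006 against 10666, 13966 and 9176 (2.14-fold, adjusted p = 0.00952). Slc38a3, a glutamine transporter gene, was at 6530, 3980 and 6295 against 10862, 13666 and 12980 (2.27-fold, adjusted p = 0.0119). The groups of all 3 were separated, and none was highest in knockout A. With heterozygous A left out 4 of the 50 were called higher, with heterozygous B 2, with knockout B 2, and with knockout A 30, beside 1.78%, 0.904%, 0.599% and 5.41% of all tested genes.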

How the data were processed

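RNA-seq of reporter-sorted SVZ cells gave 6 libraries, 3 per genotype, prepared from at least 35 ng of RNA with SMART-Seq v4 and Nextera XT, per the labels' protocols. Samples of 1 genotype are described as biological replicates, and each pools several mice. HISAT2, featureCounts (Subread), DESeq2 and the build GRCm38 are named in the submitters' processing notes, without versions. What the authors deposited for each library is a normalized signal, read counts divided by 1 factor per library, as the values show: 100% of those above 0 were whole multiples of 1 step (within 0.001 reads). Log2 fold changes with standard errors, p-values with adjusted p-values, and the score columns (Wald statistic and weight) are the authors' own, per the file headers.

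Tests used limma 3.58.1 in R 4.3.3 with a mean-variance trend on log2(value + 1), which slightly understates folds of low genes, for rows with a mean of at least 10, two-sided, with Benjamini-Hochberg adjustment over 18227 rows at 0.05. A fold is 2 to the power of that log2 change. The planned design named limma for normalized values. edgeR 4.0.16 and DESeq2 1.42.0 on recovered reads were alternatives, with other scalings, pseudocounts, filters and thresholds, a block and each library left out. The limma fit was tested on simulated reads with known changes. Exon lengths and coordinates came from GENCODE M21 (GRCm38), promoter windows from RefSeq (GRCm38.p6; 30 of 37 members matched). Where a symbol stood on more than 1 row (1 gene of the lists, no member) the row of higher mean was used.

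The members and the gene lists were chosen with earlier results of these data known. Named genes are all members, with full values for those called or, in a functional group without a call, the one with the smallest p, further values where a sentence turns on them, and the 3 called genes with the smallest p of the 50 others. Nfix, Ttr and the markers at 0 were named after their values were seen.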

Additional observations from a re-analysis of the deposited data

How the results depend on the processing

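All 37 member log2 changes were positive under every scaling, test, pseudocount and filter tried. Of 629 member values over 17 alternatives 3 were negative, all of Mfge8 and all with a library left out, where its log2 value ranged from -0.18 to 0.38. No alternative called a member lower. The member count was 8 with total-count scaling (6.67% of all genes called higher), 15 with DESeq2 (11.4%), 15 in the authors' deposited table (7.44%), 0 at a threshold of 0.01 (0.631%; limma, 16 at an unadjusted p under 0.05) and 12 at 0.1 (12.9%). For the 50 other astrocyte genes, beside the same shares, it was 25 with DESeq2, 28 in the authors' deposited table, 2 at 0.01 and 24 at 0.1. Leaving out 1 library gave 0 to 16 members and 2 to 30 of the other genes. Leaving out a library also reduces the samples in the fit, and the cause was not tested. TMM and upper-quartile scaling gave 5 members each, and no scaling moved the median of all genes by over 0.1. With the replicate block on the library letter 5 members and 10 of the other genes were called. Same-letter libraries did not deviate together (correlations of deviations -0.07, 0.02 and -0.10), so the letters were not taken as pairs. The lowest member value was 252 normalized reads. Over members the median coefficient of variation among the 3 pooled libraries was 19.4% in heterozygous and 28.4% in knockout. What limits the number of calls was not tested.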
